A study of Mus musculus with 46 samples.

Results

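The 8 genes described here encode the subunits of AMP-activated protein kinase (AMPK) and 2 kinases that act upstream of it: the catalytic α subunits Prkaa1 and Prkaa2, the scaffold β subunits Prkab1 and Prkab2, the nucleotide-binding γ subunits Prkag1 and Prkag2, and the kinases Stk11 and Camkk2. They were chosen by name, and all 8 were among the 31854 genes of the RNA count table. Chromatin was followed at every ATAC-seq peak within 50 kb of the start of one of these genes, which gave 76 of the 123721 peaks counted across the feeding states and 48 of the 67472 peaks counted in sorted nuclei. The RNA came from male C57BL/6J NuTRAPAgRP mice, which carry AgRP-IRES-Cre and a Cre-dependent NuTRAP allele, and from NuTRAPPomc mice, in which POMC-IRES-Cre drives the same allele. The NuTRAP allele tags ribosomes with GFP-L10a, so that RNA on the ribosomes of the Cre-expressing neurons could be purified (TRAP), and tags nuclei with mCherry, so that they could be sorted. Every RNA and ATAC-seq group therefore carried both the Cre driver and the reporter, and each of these samples pooled the arcuate nuclei of the hypothalamus of 4 mice, aged 6 to 11 weeks. Mice were fed ad libitum and given vehicle, fasted overnight for 18 to 20 h and given vehicle, or fasted for the same time and given leptin at 5 mg/kg, and tissue was taken 3 h later. The AgRP RNA comprised 3 fed, 4 fasted and 4 leptin libraries and the POMC RNA 2 of each, and the ATAC-seq comprised 2 libraries of AgRP nuclei per state and 2 each of AgRP-positive and AgRP-negative nuclei from fed, untreated mice. CUT&RUN, which maps where a protein sits on DNA, comprised 1 sample for CTCF, from 3K AgRP nuclei, and 1 for IRF3. The IRF3 sample came from AgRP nuclei of the IRF3-2D overexpression model. Both CUT&RUN samples were from fed, untreated male mice aged 6 to 11 weeks, with no account of pooling in the sources used here.

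AMPK is the cell's energy gauge. It is a trimer of 1 α, 1 β and 1 γ subunit: the α subunit carries the kinase, the β subunit holds the trimer together and binds glycogen, and the γ subunit binds AMP, ADP or ATP, so that the enzyme is switched on when ATP runs low. The switch needs phosphorylation of the α activation loop by LKB1, the product of Stk11, or by CaMKK2, which answers to calcium. In the hypothalamus AMPK is known for promoting feeding, it is active in fasting, and leptin lowers its activity there, while AgRP neurons drive hunger and POMC neurons drive satiety. All of this concerns the activity of the enzyme, whereas the values below are levels of ribosome-bound RNA and of open chromatin.

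The RNA libraries held 25581041 to 54511107 counted reads in the AgRP line and 30704075 to 53217053 in the POMC line. The summed level of 7 AgRP neuron markers, among them Agrp and Npy, was 1880 to 6719 CPM (read counts scaled to a common library size, with TMM factors) in the AgRP libraries and 277 to 412 in the POMC libraries, and that of 4 POMC neuron markers was 57.1 to 98.2 and 1558 to 2921, so each line carried the markers of its label. Of the 17 libraries 6 stood apart, namely AgRP number 4 and POMC number 2 in every state. In them Slc1a2, a glutamate transporter of astrocytes, reached 20150 to 25850 CPM in the AgRP line against 2378 to 3844 in the other AgRP libraries, and 23290 to 26930 against 5210 to 6196 in the POMC line. The 7 astrocyte markers together, Slc1a2 among them, summed to 21050 to 26810 CPM against 2853 to 4531 in the AgRP line. In the POMC line the sums were 24390 to 28040 against 5945 to 6875 CPM, and none of the markers was at 0. Slc1a2, by which these libraries were told apart, made up most of each sum. The sums therefore mostly repeat its level and say little about the other astrocyte markers. Results that move with these libraries are given with and without them, and the part of astrocyte RNA in those results was not tested. In samples of pooled tissue, fewer cells of a type and less RNA per cell cannot be told apart.

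RNA of all 8 genes was found in the TRAP libraries of both lines, and the row of Stk11 stood far above the rest. These libraries also held astrocyte markers, and the part of other cells in the levels was not tested. Scaled per kilobase of counted length (RPKM), the mean level over the 11 AgRP libraries was 118 ± 22.6 (SD) for Stk11 and 22.8 ± 4.32 for Prkaa1, and each of these was above the next gene in all 11 libraries. Prkag1 followed at 14.9 ± 1.89, above Prkag2 at 12.2 ± 1.22 in 10 of the 11. Prkag2 and Prkaa2, at 11.7 ± 3.29, did not differ beyond their spread, since Prkag2 was the higher in only 8 libraries. At the low end lay Prkab2 at 4.77 ± 1.31, Prkab1 at 3.87 ± 0.24 and Camkk2 at 3.28 ± 0.377, and Prkab2 exceeded Prkab1 in 7 libraries and Prkab1 exceeded Camkk2 in 9, so their order was not firm. The POMC line gave the same top 2, Stk11 at 127 and Prkaa1 at 26.4 RPKM (n = 6), but there Prkag2 at 14.8 lay above Prkag1 at 12.9 RPKM in 6 of 6 libraries. Prkaa2 averaged 16.1 RPKM in that line, and its place rested on the libraries that stood apart. There it was at 17.3 to 23.4 RPKM against 10.9 to 11.9 for Prkag1, whereas in the other 3 POMC libraries it was at 10.9 to 13.2 RPKM against 14.1 to 14.9. Prkab2, at 7.19 RPKM, was above Prkab1, at 3.85, in 6 of 6 POMC libraries. The Stk11 row was counted over 7828 bases, against 4580 merged exon bases in GENCODE, and the gene's end shares 232 exon bases with the antisense gene Cbarp, which has no row of its own. The library kit does not mark strand, so reads of Stk11 and of Cbarp cannot be told apart there. The counted length exceeds the merged exons, so the row may hold further parts of Cbarp, which has 4996 merged exon bases. The part of Cbarp in the Stk11 values was not tested. Prkag1 was likewise counted over 3863 bases against 2175, and shares 950 exon bases with the antisense gene B130046B21Rik. Prkag2 shares 795 exon bases with the antisense gene Prkag2os2, which has no row, and 142 with Prkag2os1, which has one. The part of antisense reads in the Prkag1 and Prkag2 levels was not tested.

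**Figure D1:**
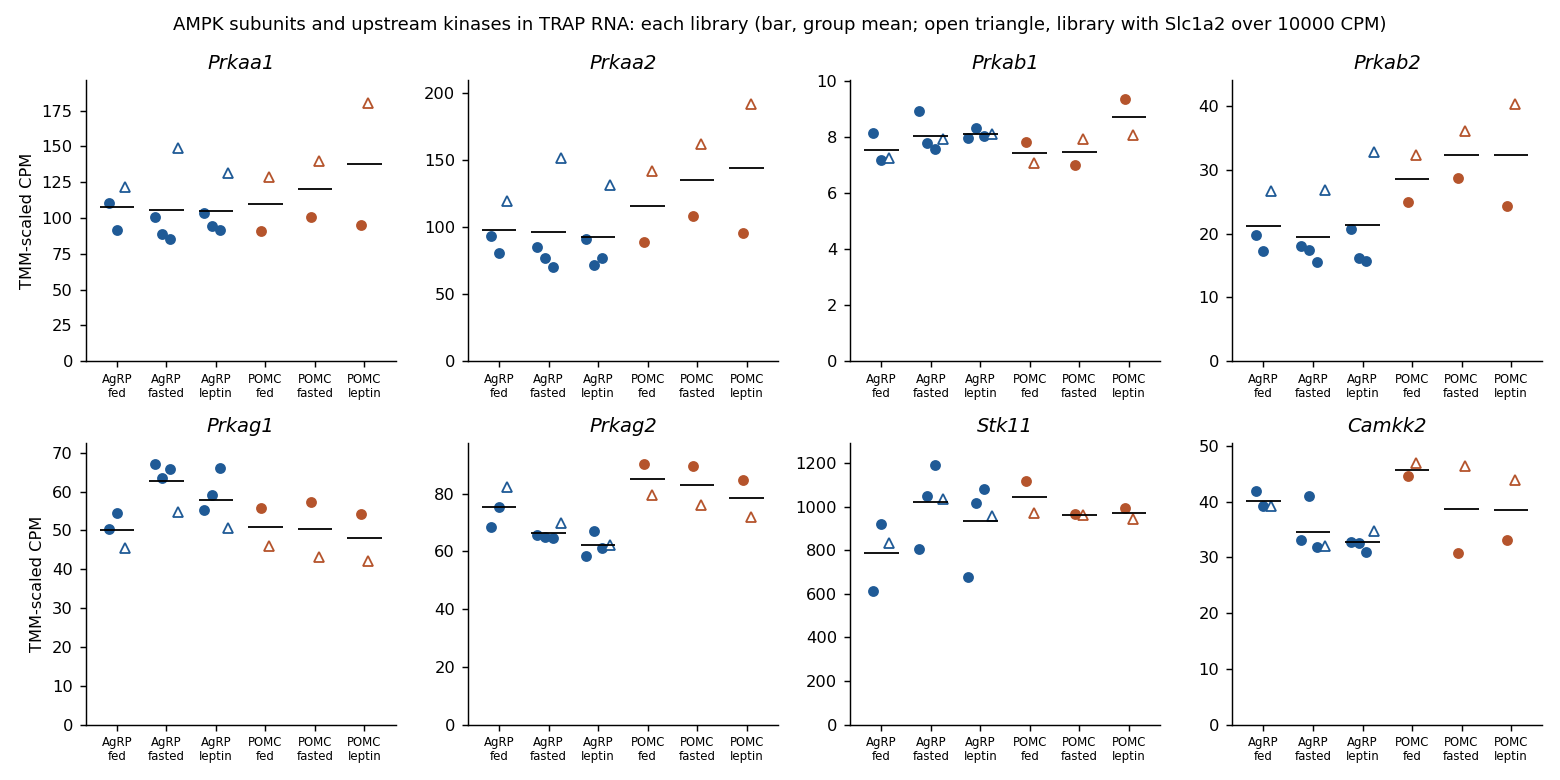
Level of each of the 8 genes in every TRAP RNA library, in TMM-scaled CPM (linear axes from 0), by line and feeding state; bars are group means, and open triangles mark the 6 libraries with Slc1a2 over 10000 CPM. The triangles are the highest points of their groups for Prkaa1, Prkaa2 and Prkab2 and the lowest for Prkag1, and the AgRP fasted points for Prkag1, 54.7 to 67.2 CPM, lie above all fed points, 45.6 to 54.6 CPM.

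The first question was whether the RNA of the AMPK machinery followed energy state in AgRP neurons. None of the 8 genes was called in any AgRP state comparison by edgeR's quasi-likelihood test, where a call needed a Benjamini-Hochberg FDR below 0.05 and an absolute log2 fold change above 0.5, and DESeq2 also called 0. Among all genes tested, 3.89% were called between fasted and fed, 1.83% between leptin and fasted and 5.48% between leptin and fed mice. At an unadjusted p below 0.05 by edgeR the members numbered 1, 0 and 2 of 8 in these comparisons. All genes at that cut numbered 2584, 1224 and 3094 of 13401. Libraries with the same number deviated together across states in the AgRP line, and with that number as a block 4 of the 8 genes passed the FDR threshold for fasted against fed, all with changes under the fold threshold, where 24.5% of all genes passed at any fold. These 4 were Prkag1 and Stk11, which were higher in fasted mice, and Prkag2 and Camkk2, which were lower. With a term for the libraries that stood apart in place of the block, Prkag1 passed (edgeR FDR 0.0126). Stk11, Prkag2 and Camkk2 did not (edgeR FDR 0.216, 0.153 and 0.193). The share of all genes passing with this term is not given here, so these passes have no background beside them. For leptin against fasted the block brought 0 of the 8 past the FDR threshold, with 7.83% of all genes passing at any fold. For leptin against fed it brought the same 4 genes, with 30.0% of all genes passing. With the term instead, Prkag2 passed for leptin against fed (edgeR FDR 0.0268). Prkag1, Camkk2 and Stk11 did not (edgeR FDR 0.0721, 0.0636 and 0.388).

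The γ subunits read the AMP to ATP ratio. The levels of Prkag1, which encodes γ1, were 50.3, 54.6 and 45.6 CPM in the fed AgRP libraries, 67.2, 63.5, 65.8 and 54.7 in the fasted ones and 55.3, 59.0, 66.0 and 50.8 after leptin. The fed and fasted values did not overlap, though the lowest fasted library lay only just above the highest fed one. The difference was 1.26-fold (0.33 on the log2 scale, SE 0.0987, FDR 0.0809 by edgeR), and Prkag1 was higher in 3 of 3 pairs of libraries with the same number, with 0.32 and an FDR of 0.00309 in the fit with the replicate block. With a term for the libraries that stood apart, all of which had the lowest Prkag1 level of their group, the FDR was 0.0126. After leptin Prkag1 lay between the other states, at a mean of 57.8 CPM against 50.2 fed and 62.8 fasted (log2 fold change from fed 0.20, FDR 0.0287 with the block and 0.227 without it).

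Prkag2, the other γ subunit in these cells and a gene whose mutations cause cardiac glycogen storage disease, had lower means outside the fed state. Its levels were 68.3, 75.5 and 82.3 CPM in fed mice, 65.7, 65.0, 64.7 and 70.0 in fasted mice and 58.4, 67.2, 61.1 and 62.3 after leptin. The fed and leptin values did not overlap, while 1 fasted library reached into the fed range. The log2 fold change was -0.17 for fasted against fed (FDR 0.324, or 0.0438 with the block) and -0.28 for leptin against fed with the block (FDR 0.0052, or 0.0914 without it). Prkag2 was lower in fasted mice in each of the 3 numbered pairs.

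The catalytic subunits were not called between states. Prkaa1, which encodes α1, was at 110.5, 91.7 and 122 CPM in fed AgRP libraries, 100.4, 88.7, 85.2 and 149 in fasted ones and 103, 94.4, 91.8 and 131 after leptin. Prkaa2, which encodes α2, was at 93.7, 81.2 and 120 CPM fed, 85.6, 77.2, 70.1 and 152 fasted and 91.3, 72.1, 77.0 and 132 after leptin. In every state the high value of both genes was the library that stood apart. For fasted against fed the interval of 2 SE around the log2 fold change ran from -0.44 to 0.41 for Prkaa1 and from -0.61 to 0.59 for Prkaa2 without the block. With the block the Prkaa2 value was 0.02 (SE 0.0921, FDR 0.879 by edgeR), and with a term for the libraries that stood apart -0.01 (SE 0.116, FDR 0.97).

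The β subunits were also without a call. Prkab1, the ubiquitous β1 scaffold, was the least variable member, at 8.17, 7.19 and 7.26 CPM fed, 8.93, 7.80, 7.59 and 7.94 fasted and 7.97, 8.35, 8.07 and 8.13 after leptin, and it rested on 178 to 443 reads a library in the AgRP line. Prkab2, the β2 scaffold, was at 19.9, 17.3 and 26.7 CPM fed, 18.1, 17.5, 15.5 and 26.9 fasted and 20.7, 16.2, 15.7 and 32.9 after leptin. As with the α subunits, the high Prkab2 values were the libraries that stood apart, 26.7 to 32.9 CPM against 15.5 to 20.7 in the others.

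Both upstream kinases differed by state only with the replicate block, in opposite directions. The Stk11 row may hold reads of Cbarp, as given above. Stk11, encoding LKB1, was at 613, 919 and 831 CPM in fed mice (numbers 1, 3 and 4), 804, 1050, 1189 and 1033 in fasted mice and 679, 1015, 1082 and 956 after leptin. The values overlapped between states because number 1 was low throughout, yet fasted exceeded fed in 3 of 3 numbered pairs. The log2 fold change for fasted against fed was 0.38 without the block (SE 0.21, FDR 0.361) and 0.36 with it (FDR 0.000796), and for leptin against fed 0.22 with the block (FDR 0.011, or 0.538 without it). Camkk2, which couples calcium to AMPK, was at 41.8, 39.2 and 39.2 CPM fed, 33.1, 41.0, 31.8 and 32.0 fasted and 32.8, 32.5, 31.1 and 34.7 after leptin. All fed libraries lay above all leptin libraries, and 1 fasted library lay in the fed range. The log2 fold change of Camkk2 was -0.21 for fasted against fed (FDR 0.296, or 0.0451 with the block) and -0.33 for leptin against fed with the block (FDR 0.0114, or 0.114 without it).

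**Figure D2:**
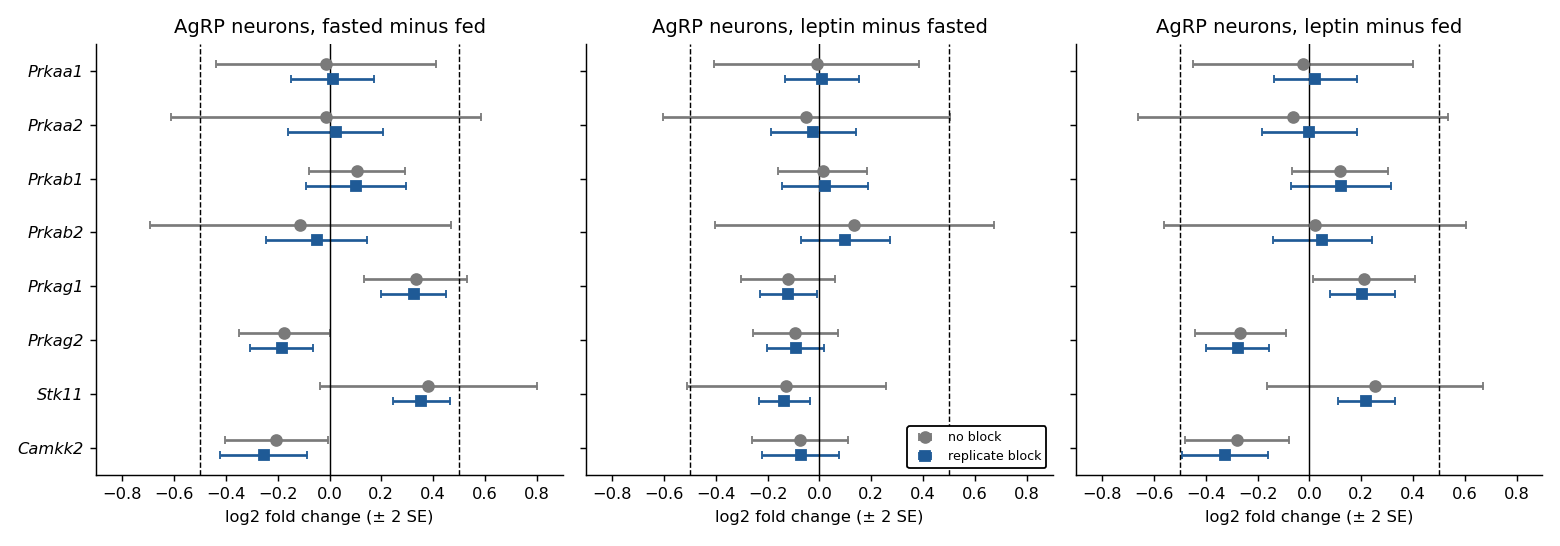
Log2 fold change of the 8 genes in AgRP neurons for fasted minus fed, leptin minus fasted and leptin minus fed, from the fit without a block (grey circles) and with the replicate number as a block (blue squares); bars are 2 SE each way and dashed lines mark the fold threshold of 0.5. All points lie inside the dashed lines, and the block shortens the bars most for Prkaa1, Prkaa2, Prkab2 and Stk11.

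No member passed the test between leptin-treated and vehicle-treated fasted mice. The log2 fold changes for leptin against fasted ran from -0.13 for Stk11 to 0.13 for Prkab2, with a median of -0.06 over the 8 genes against -0.01 over all genes tested. In POMC neurons no member was called in any state comparison either, where edgeR and DESeq2 called 0 of the members and edgeR 0% of all 13412 genes, with 282, 151 and 282 genes at an unadjusted p below 0.05 and none of them a member. With 2 libraries per state and no block, the intervals of 2 SE over the 8 genes spanned log2 fold changes from -0.73 to 1.12. With the block the SE was at most 0.148, and Prkaa2 for leptin against fed was at 0.27 (SE 0.0997, FDR 0.234 by edgeR). The fasting effect was then compared between the lines directly. No member was called for that difference or for the difference in the leptin effect, against 0.164% and 0.0819% of all genes, but with the replicate block the fasting effect on Stk11 was larger in AgRP than in POMC neurons by 0.46 on the log2 scale (FDR 0.00568) and that on Prkag1 by 0.34 (FDR 0.0402), where 10.2% of all genes passed at any fold.

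Because each trimer holds 1 subunit of each kind, the balance of the alternative subunits was examined as shares of the summed per-length level. The γ2 share, Prkag2 of both γ genes, was 48.6, 49.1 and 55.7% in fed AgRP libraries, 40.6, 41.7, 40.7 and 47.1% in fasted ones and 42.4, 44.2, 39.2 and 46.1% after leptin. The fed libraries lay above every fasted library, with means of 51.2 ± 3.97% (SD, n = 3) and 42.5 ± 3.12% (n = 4), a difference of -8.65 points. The exact two-sided permutation test gave p = 0.0571, the smallest that 3 against 4 libraries allow, and 0.129 after adjustment over the 9 share comparisons. The β2 share was 53.5, 53.3 and 63.5% fed, 49.0, 51.4, 49.1 and 61.6% fasted and 55.2, 47.9, 48.0 and 65.7% after leptin (exact permutation p = 0.343 for fasted against fed), and the α2 share stayed between 30.3 and 36.7% in all 11 AgRP libraries (p = 0.8). None of the 3 shares passed the test between leptin and fasted libraries (the smallest exact permutation p was 0.771, for the β2 share). Lengths here are those of the count table, and the size of each share depends on them. Both γ rows may also hold antisense reads, as given above.

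Between the lines the same shares all had lower means in AgRP neurons. Cell type, Cre line and any difference in library handling between the lines cannot be told apart in this comparison. The α2 share averaged 33.5% over the 11 AgRP libraries and 37.7% over the 6 POMC libraries, the β2 share 54.4 and 64.7% and the γ2 share 45.0 and 53.6%. Permuting the lines within states gave exact two-sided p-values of 0.00178, 0.0124 and 0.00267, adjusted to 0.012, 0.0373 and 0.012. These treat libraries of 1 line and number as independent, although they deviate together, and so are too small. With each numbered set taken once, as its mean over states, the differences were -4.35, -10.6 and -8.34 points, and the exact permutation p was 0.133, 0.267 and 0.133, where 0.133 is the smallest that 4 against 2 sets allow. Single libraries of the lines overlapped in each share, the γ2 share of fed AgRP libraries reaching 55.7% against 52.1 to 55.2% in POMC libraries. Without the libraries that stood apart the differences were -4.23, -9.18 and -8.50 points, with adjusted p of 0.188, 0.25 and 0.188 by the exact permutation test, which then has fewer arrangements.

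**Figure D3:**
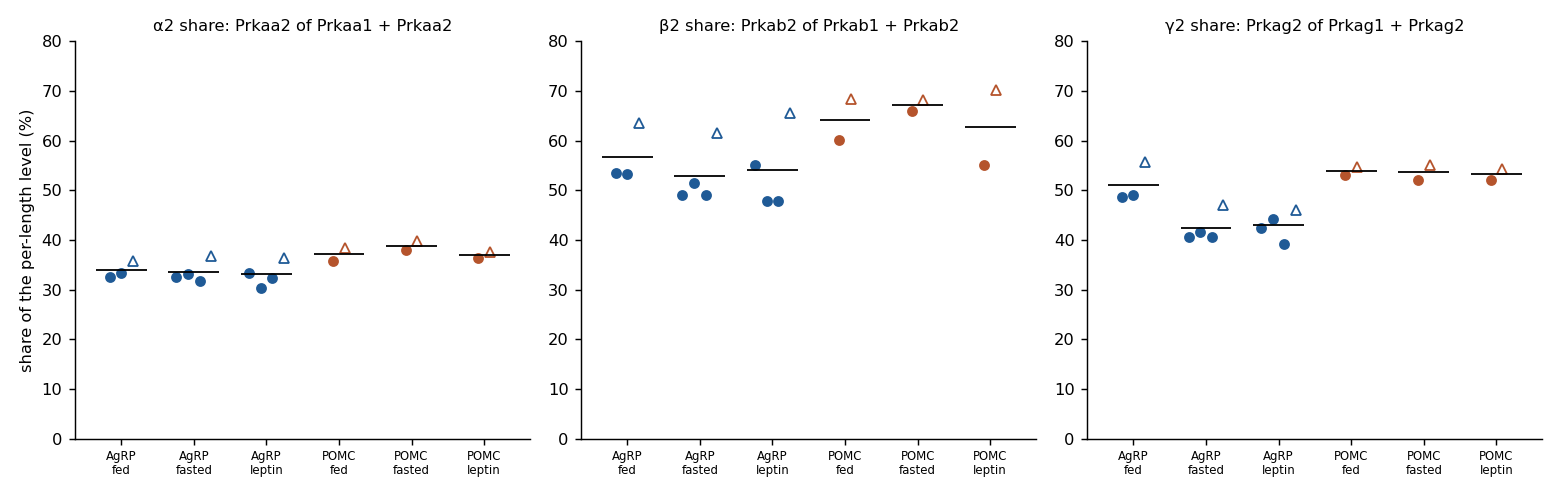
Share of α2, β2 and γ2 in the summed per-length level of the pair of genes for each subunit, in percent, for every TRAP RNA library by line and state; bars are group means and open triangles the libraries with Slc1a2 over 10000 CPM. The fed AgRP libraries sit at 48.6 to 55.7% for γ2, above the fasted ones at 40.6 to 47.1%, and the POMC libraries sit at 52.1 to 55.2%.

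At the level of single genes, where line and cell type again cannot be told apart, Prkab2 was the only member called between the lines over all states. It was lower in AgRP than in POMC neurons, at 15.5 to 32.9 against 24.3 to 40.4 CPM, a difference of -0.59 on the log2 scale (SE 0.18, FDR 0.0213 by edgeR), where 13.0% of all genes were called. With a term for the libraries that stood apart the difference was -0.47 (FDR 0.000313), under the fold threshold, and the call was also lost without number 2 of the POMC line in the fed (FDR 0.0734), fasted (FDR 0.066) or leptin state (FDR 0.0938). The libraries of 1 line and number enter this test as independent, and with their counts summed to 4 AgRP and 2 POMC sets Prkab2 differed by -0.61 (SE 0.261, FDR 0.206 by edgeR) and 0 of the 8 genes were called, against 6.37% of all genes. Prkag2 was lower in AgRP neurons as well, at 58.4 to 82.3 against 71.8 to 90.4 CPM, by -0.28 (FDR 0.00346, 0.00116 with the term and 0.115 over summed sets), a difference under the fold threshold. Prkaa2 differed by -0.45 (FDR 0.101, or -0.28 and FDR 0.00771 with the term) and became a call without number 4 of the AgRP fasted or leptin libraries or without number 1 of the POMC leptin libraries. Stk11 differed by -0.13, Prkaa1 by -0.20, Camkk2 by -0.20, Prkag1 by 0.19 and Prkab1 by 0.01, none of them past the threshold. With the term Prkaa1 differed by -0.06 (FDR 0.511), Camkk2 by -0.16 (FDR 0.136), Stk11 by -0.13 (FDR 0.383) and Prkag1 by 0.13 (FDR 0.033). The share of all genes passing with the term between the lines is not given here. In fed mice alone 0 of the 8 genes were called, against 2.17% of all genes, and DESeq2 also called 0. At an unadjusted p below 0.05 by edgeR the members numbered 0, against 1805 of all 13453 genes.

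The same question was then put to the chromatin near the genes. Sequences of the peaks and promoters on which the following rests are printed in lower case from RefSeq GRCm38, with matches in capitals to any of the motifs searched on both strands. These were a cAMP response element (CRE, TGACGTCA), the FOXO site GTAAACA, the STAT site TTCNNNGAA, an ISRE-like motif, the E-box CACGTG, the GC box GGGCGG, the ETS site CCGGAAG and the AP-1 site TGANTCA. The first 3 are the central 300 bases of peaks that each had the largest called difference near the members in a comparison. For the Prkaa2 site that was AgRP-positive against AgRP-negative nuclei. For the Prkag2 peaks it was fasted against fed (upstream) and leptin against fasted (intron). The 3 windows follow in this order. They lie on the forward strand, 19.0 kb upstream of Prkaa2 (chr4:105129189-105129488), 38.5 kb upstream of Prkag2 (chr5:25139344-25139643) and in the first part of Prkag2, in an intron 11.4 kb inside the gene (chr5:25088900-25089199). The other pair are the promoters, from 250 bases before to 50 after the start, of Prkag1 (chr15:98831459-98831758, reverse strand) and Stk11 (chr10:80115545-80115844, forward strand), the members whose RNA was higher in fasted mice with the replicate block.
Prkaa2 peak, 19.0 kb upstream: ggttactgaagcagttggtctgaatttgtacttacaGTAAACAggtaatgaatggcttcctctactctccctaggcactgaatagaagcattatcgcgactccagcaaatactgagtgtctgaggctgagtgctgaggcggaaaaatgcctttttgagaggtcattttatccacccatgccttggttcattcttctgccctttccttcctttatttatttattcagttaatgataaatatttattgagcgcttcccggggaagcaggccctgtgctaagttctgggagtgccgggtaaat
Prkag2 peak, 38.5 kb upstream: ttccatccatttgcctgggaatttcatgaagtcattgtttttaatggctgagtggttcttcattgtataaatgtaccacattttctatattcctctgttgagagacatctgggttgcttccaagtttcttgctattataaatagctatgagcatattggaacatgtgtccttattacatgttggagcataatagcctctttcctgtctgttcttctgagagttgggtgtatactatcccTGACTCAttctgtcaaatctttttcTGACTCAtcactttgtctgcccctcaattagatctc
Prkag2 intron peak, 11.4 kb inside: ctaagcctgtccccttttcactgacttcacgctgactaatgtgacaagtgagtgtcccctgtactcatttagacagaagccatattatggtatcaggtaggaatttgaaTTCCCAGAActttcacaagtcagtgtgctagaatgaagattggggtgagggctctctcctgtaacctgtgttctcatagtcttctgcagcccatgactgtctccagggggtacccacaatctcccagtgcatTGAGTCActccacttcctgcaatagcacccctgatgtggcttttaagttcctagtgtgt
Prkag1 promoter: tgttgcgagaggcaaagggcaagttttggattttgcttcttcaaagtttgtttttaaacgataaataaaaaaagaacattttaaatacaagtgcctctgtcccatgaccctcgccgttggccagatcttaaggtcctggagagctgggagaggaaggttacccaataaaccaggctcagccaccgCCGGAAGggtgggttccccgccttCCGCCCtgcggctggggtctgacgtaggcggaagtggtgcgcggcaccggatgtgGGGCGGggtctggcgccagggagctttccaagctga
Stk11 promoter: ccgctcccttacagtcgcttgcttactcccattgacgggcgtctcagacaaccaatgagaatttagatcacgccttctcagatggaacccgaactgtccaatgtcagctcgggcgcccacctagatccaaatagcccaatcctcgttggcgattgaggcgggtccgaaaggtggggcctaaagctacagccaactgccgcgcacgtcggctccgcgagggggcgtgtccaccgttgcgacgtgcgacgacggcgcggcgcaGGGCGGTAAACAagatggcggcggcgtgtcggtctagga

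In these letters the Prkaa2 peak held 1 FOXO match, found in 4.54% of all peak centres of that length and in 3 of the 76 near the members. The peak upstream of Prkag2 held AP-1 matches, as did 32.2% of all peak centres, and the intron peak 1 STAT match (12.4% of all) beside an AP-1 match. Of the 10 promoter windows of the 8 genes, 8 held a GC box, spread over 7 genes, against 35.7% of 32851 promoter windows. Prkag1 and Prkab1 held an ETS match (8.86% of all promoters), and Stk11 held the only FOXO match (3.65% of all), which overlaps its GC box by 1 base. None of the member promoters held the letters of the CRE, STAT, ISRE-like, E-box or AP-1 motifs, which occur in 1.79, 8.3, 3.44, 7.15 and 7.81% of all promoters. A match is a run of letters and not a bound site.

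Fasting changed 10 of the 69 testable peaks near the members in AgRP nuclei, 5 upwards and 5 downwards, which is 14.5% against 27.0% of all peaks tested. The median log2 fold change of the 69 was -0.14, against -0.04 over all peaks. Of the 33 tested peaks whose nearest coding start was the member, 9 were called (27.3%). Of the 36 nearest to the start of another gene, 1 was called (2.78%). Leptin against fasted called 3 of 69, all higher, or 4.35% against 3.08% of all peaks, and leptin against fed called 21, 12 higher and 9 lower, or 30.4% against 36.8%. Prkag2 had 4 of its 11 tested peaks called by fasting and 7 between leptin and fed, whereas Stk11, in a gene-dense stretch, had 0 of 17 and 6 of 17, and Prkab2 had 0 of 4 in both.

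Of the 8 peaks at the gene starts 1 was called for fasted against fed. All 8 had a log2 fold change below 0 for fasted against fed, from -0.50 to -0.06. The sign was not firm for Camkk2, Prkab1 and Prkag1, whose values reached 0.096, 0.20 and 0.046 over the alternative settings. The share of all gene starts with a value below 0 was not worked out. The called start peak was that of Prkaa1. It was at 36.6 and 46.7 CPM in fed, 31.4 and 28.1 in fasted and 27.3 and 28.5 in leptin libraries. The groups did not overlap, and the log2 fold change was -0.50 for fasted against fed (FDR 0.0496, lost in 7 of 9 alternative settings) and -0.59 for leptin against fed (FDR 0.017). The highest start peak was that of Stk11, at a mean of 79.3 CPM fed, 66.1 fasted and 62.8 after leptin, followed by Prkab2 at 61.2, 46.9 and 51.7 CPM. Prkaa2 stood at 42.1, 32.3 and 33.4 CPM, and Camkk2 at 28.2, 26.1 and 24.7. The Prkag1 start, at 27.4, 25.2 and 23.8 CPM, was not called in either direction, and neither were the starts of Prkab1, at 25.04, 24.4 and 18.1 CPM, and Prkag2, at 20.7, 17.4 and 18.6 CPM.

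The peak 19.0 kb upstream of Prkaa2, between genes on chromosome 4 (105128915 to 105129761), was called in both directions. It was at 14.5 and 15.1 CPM in fed, 9.50 and 8.78 in fasted and 18.1 and 18.5 in leptin libraries. No 2 states overlapped: the fasted libraries were lowest and the leptin libraries highest. The log2 fold change was -0.70 from fed to fasted (SE 0.258, FDR 0.0481), and 1.00 from fasted to leptin (SE 0.239, FDR 0.0213). Both calls were near the threshold, and they were lost in 6 of 9 and 4 of 9 alternative settings, among them leaving out any 1 of the libraries compared. The RNA of Prkaa2 was not called between these states, as given above. In sorted nuclei the same site (105129089 to 105129597) was at 13.6 and 13.99 CPM in AgRP-positive and at 0.862 and 1.54 CPM in AgRP-negative nuclei. This difference, 3.50 on the log2 scale (SE 0.38, FDR 2.78e-18), held in all 9 alternative settings.

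Prkag2 carried the largest state differences. The peak 38.5 kb upstream of its start, between genes on chromosome 5 (25139190 to 25139797), was at 0.745 and 0.793 CPM in fed, 10.4 and 7.59 in fasted and 7.91 and 6.36 in leptin libraries. Both fed libraries were below 1 CPM and all 4 others above 6, with log2 fold changes of 3.53 for fasted against fed (SE 0.48, FDR 5.75e-05) and 3.18 for leptin against fed (FDR 9.33e-05), and the fasting call held in all 9 alternative settings. In the intron 11.4 kb inside Prkag2 (25088838 to 25089260) the peak was at 1.24 and 0.433 CPM fed, 1.27 and 1.74 fasted and 6.04 and 4.41 after leptin. Both leptin libraries lay above all 4 others. On the log2 scale the difference was 1.77 for leptin against fasted (SE 0.377, FDR 0.0102) and 2.80 for leptin against fed (FDR 0.000248). The first of these was lost with DESeq2 and without fasted library 1 or leptin library 1, and the second held in all 9 settings.

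**Figure D4:**
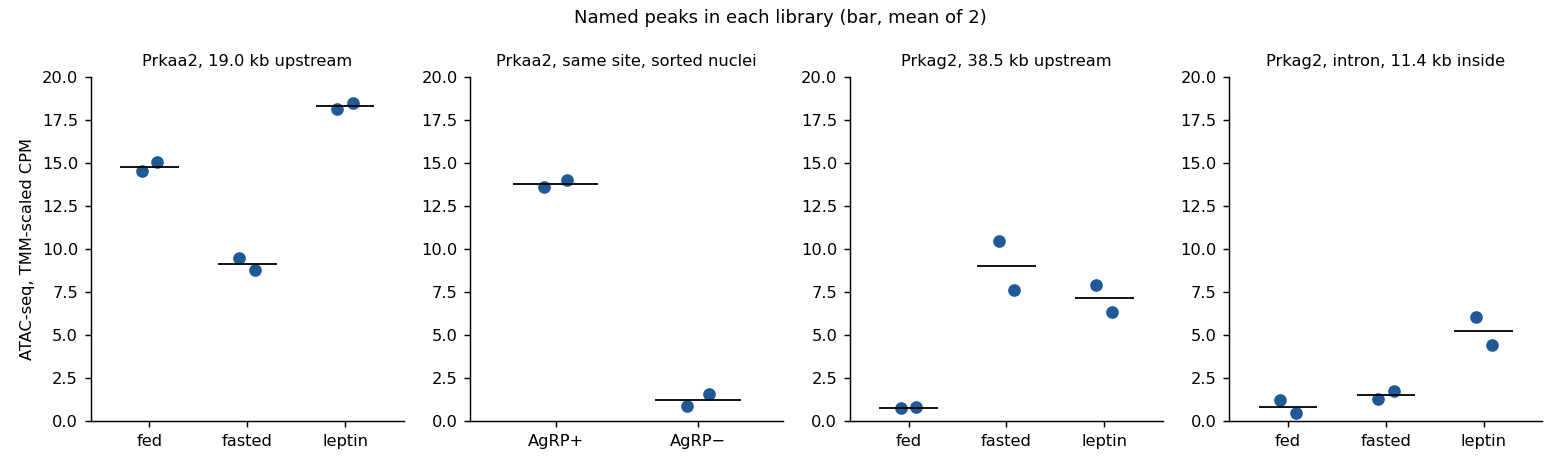
ATAC-seq level, in TMM-scaled CPM, of the 3 peaks named above in each library of AgRP nuclei by state, and of the Prkaa2 site in sorted AgRP-positive and AgRP-negative nuclei; each point is 1 library and bars are means of 2. The Prkaa2 site falls to 8.78 to 9.50 CPM in fasted and rises to 18.1 to 18.5 CPM in leptin libraries, the upstream Prkag2 site is below 1 CPM in fed libraries, and the Prkag2 intron site is at 4.41 to 6.04 CPM after leptin.

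Other called peaks were chosen for mention after their values were seen. Prkag2 had a further upstream peak, 27.0 kb from its start, at 1.74 and 0.649 CPM fed and 3.95 and 4.04 fasted (log2 fold change 1.91, FDR 0.00506), and an intron peak 16.4 kb inside at 5.59 and 5.55 fed, 11.2 and 10.1 fasted and 12.8 and 13.2 after leptin (0.93 for fasted against fed, FDR 0.0265). Another intron peak, 40.9 kb inside, went down, from 21.5 and 13.99 CPM fed to 7.65 and 7.84 fasted (log2 fold change -1.15, FDR 0.00492). Thus peaks of the same gene moved both ways with fasting. Near Camkk2 the peak 19.5 kb upstream was at 22.2 and 23.4 CPM fed, 10.4 and 16.1 fasted and 7.64 and 7.36 after leptin, with log2 fold changes from fed of -0.78 (FDR 0.0241) and -1.61 (FDR 0.000155). The first of these was lost without fasted library 1 or fed library 2 (FDR up to 0.25). Near Prkab1 the peak 48.3 kb in the direction of transcription, beyond the gene's end, was at 2.48 and 8.22 CPM fed and 20.1 and 15.1 fasted (log2 fold change 1.56, FDR 0.00292, ranging from 1.08 to 2.81 over 9 alternative settings, all of them calls). One of the largest differences in the windows was not at a member's own start. The peak 41.6 kb from the Prkag1 start lies at the start of Wnt1, and was at 0.621 and 1.37 CPM fed and 8.41 and 10.1 fasted (log2 fold change 3.08, FDR 0.000273). Near Stk11 a peak 36.6 kb upstream, in an intron with Sbno2 as the nearest start, was higher after leptin than in fasted mice (log2 fold change 1.57, FDR 0.0468), a call lost in 4 of 9 alternative settings.

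**Figure D5:**
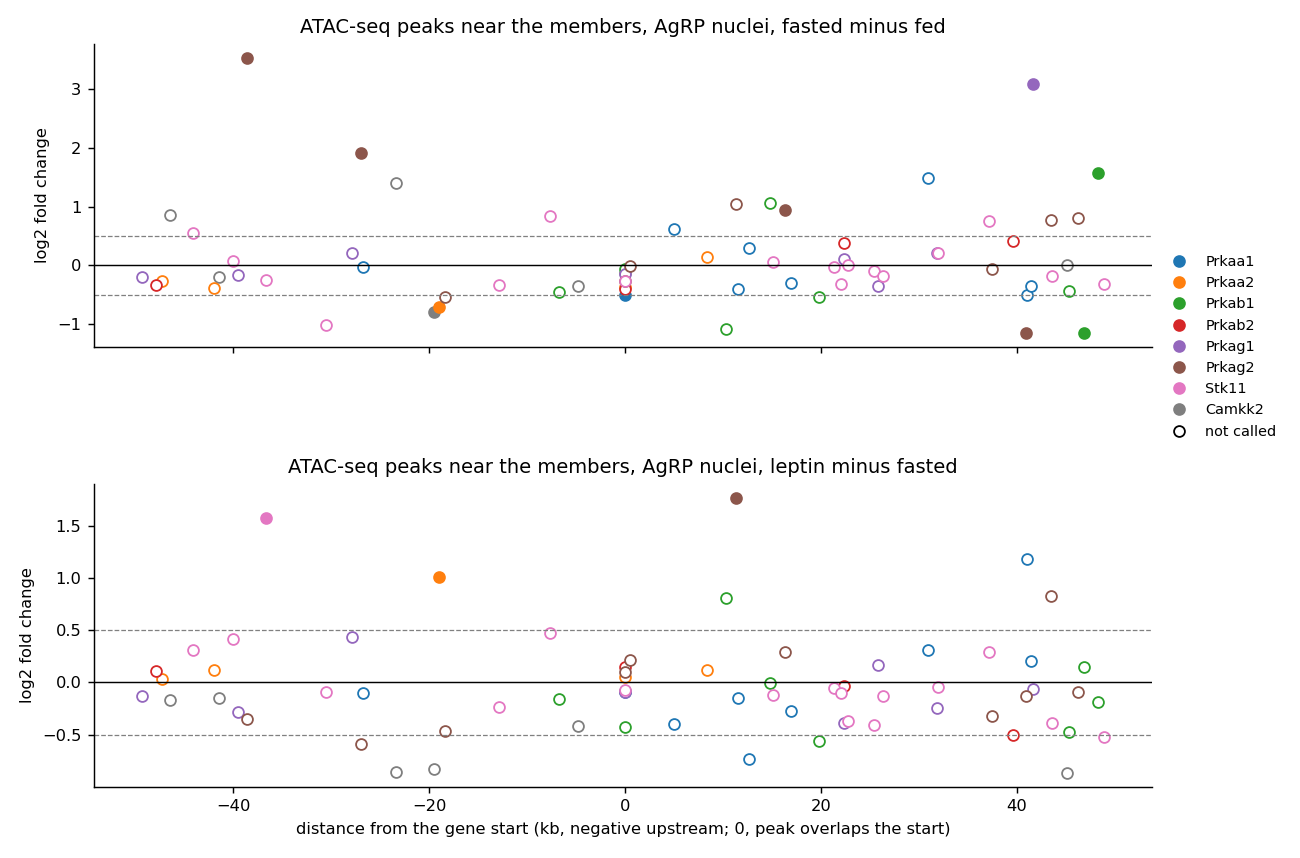
Log2 fold change of each tested ATAC-seq peak within 50 kb of a member's start against its distance from that start in kb (negative values upstream), coloured by gene, for fasted minus fed (top) and leptin minus fasted (bottom) in AgRP nuclei; filled points are called and dashed lines mark the fold threshold of 0.5. The peaks at the starts lie between -0.50 and -0.06 in the top panel, and the highest point, at 3.53, is the Prkag2 peak 38.5 kb upstream.

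Between AgRP-positive and AgRP-negative nuclei, 14 of the 48 peaks near the members were called, 7 in each direction, or 29.2% against 39.6% of all peaks tested. The largest difference was that of the Prkaa2 site described above. Of the start peaks, Prkag2 was higher in AgRP-positive nuclei, at 21.5 and 19.99 against 14.2 and 13.0 CPM (log2 fold change 0.61, FDR 0.00724), and Prkab1 was lower, at 18.5 and 20.6 against 26.2 and 31.2 CPM (-0.56, FDR 0.00433). Each of these calls was lost in 3 of 9 alternative settings, among them leaving out AgRP-negative library 2 or AgRP-positive library 1. The other 6 starts were not called and ran from -0.49 for Camkk2 to -0.07 for Prkag1. Among peaks picked after their values were seen, a site 40.2 kb upstream of Stk11, with Gpx4 as its nearest start, was at 19.8 CPM in both AgRP-positive libraries and at 4.18 and 4.50 in the AgRP-negative ones (log2 fold change 2.19, FDR 1.71e-15). A site 4.9 kb upstream of Camkk2 was lower, at 2.31 and 0.416 against 6.89 and 4.74 CPM (-2.11, FDR 2.66e-05). AgRP-negative nuclei come from the other cells of the arcuate nucleus, so the comparison is with a mixture of cell types. Both populations were sorted from the same pooled samples, and the test treated their libraries as unpaired.

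CUT&RUN had 1 sample per factor, with no replicate check. In the list for CTCF, a factor that folds chromatin into loops, 34 of 51182 entries lay in the windows of the 8 genes, and entries overlapped the starts of Prkab2, at 4.48-fold enrichment, and Prkag1, at 3.29-fold, beside a list median of 3.35-fold. A CTCF entry at 6.51-fold ended 32 bases before the Stk11 start. In the list for IRF3, from AgRP nuclei of mice that express the activated IRF3-2D form, 16 of 30387 entries lay in the windows. IRF3 entries overlapped the starts of Stk11, with a total signal of 3511, above 97.5% of the list, and of Prkab2, with 2165, above 89.8%, against a list median of 1288. The entry 57 bases inside Prkag1 was low in the list, at 1050. The share of all gene starts that overlap an entry was not worked out for either list, and the IgG control was not used. Whether the entries at these starts exceed the general signal of open promoters was not tested. One IRF3 entry, with a total signal of 1997, overlapped the Prkag2 intron peak 16.4 kb inside, which was more open in fasted and leptin libraries than in fed ones.

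Around the members stand the partners and targets of AMPK, listed in 4 groups of 41 genes in all, of which 38 were tested. For fasted against fed in AgRP neurons 2 of the 38 were called, both higher, beside 3.89% of all genes, and the median log2 fold change was 0.02 over the list and over all genes. Fnip2, a folliculin partner in the regulation of AMPK and mTORC1, rose from 40.1 ± 3.31 to 57.3 ± 4.22 CPM (SD, n = 3 and 4, log2 fold change 0.53, SE 0.0899, edgeR FDR 0.00706). Tbc1d4, a Rab GTPase-activating substrate of AMPK and Akt that controls glucose transporter traffic, rose from 49.2 ± 7.26 to 76.7 ± 10.4 CPM (0.65, edgeR FDR 0.0458) and stood at 93.9 CPM after leptin, the single call of the 38 for leptin against fed (0.94, edgeR FDR 0.00698), beside 5.48% of all genes. These were 1 of the 6 regulators and 1 of 14 substrates and targets, while 0 of 6 genes of the LKB1 complex and other upstream kinases and 0 of 12 AMPK-related kinases were called. With the replicate block Sik1, an LKB1-dependent kinase induced by cAMP, was also called, at 43.9 ± 14.1 CPM fed, 71.0 ± 5.68 fasted and 44.2 ± 3.48 after leptin, higher in fasted than fed mice (0.71, edgeR FDR 0.0045) and lower after leptin than in fasted mice (-0.67, edgeR FDR 0.00583). With the block 24.5% of all genes passed the FDR threshold at any fold for fasted against fed, and 7.83% for leptin against fasted. Without the block 0 of the 38 genes were called for leptin against fasted and 0 in any POMC state comparison.

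Over all states 4 of the 38 genes were called between the lines, 2 higher and 2 lower, beside 13.0% of all genes. As for the members, line, cell type and any difference in library handling cannot be told apart here. AgRP neurons had more Tbc1d4, at 75.4 against 30.6 CPM (log2 fold change 1.21, edgeR FDR 6.33e-06), and more Sik1, at 53.8 against 34.5 CPM (0.58, edgeR FDR 0.00108), than POMC neurons. They had less Foxo3, a transcription factor phosphorylated by AMPK, at 36.0 against 52.3 CPM (-0.53, edgeR FDR 0.0126), and less Cpt1a, the mitochondrial carnitine palmitoyltransferase of fatty acid oxidation, at 13.6 against 21.0 CPM (-0.62, edgeR FDR 0.00122). Over the summed sets Tbc1d4 (1.31, edgeR FDR 0.00656) and Sik1 (0.65, edgeR FDR 0.0285) stayed called, while Foxo3 (-0.55, edgeR FDR 0.165) and Cpt1a (-0.63, edgeR FDR 0.0687) did not. The fasting effect on Tbc1d4 was larger in AgRP than in POMC neurons by 0.72 on the log2 scale with the replicate block (edgeR FDR 0.00526), and by 0.68 without it (edgeR FDR 0.494). With the block 10.2% of all genes passed the FDR threshold for this difference at any fold.

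The genes whose levels ran most closely with Prkab2, the member called between the lines, were 2810459M11Rik (Pearson r 0.986 over the 11 AgRP libraries, on log2 CPM), Slc2a13, a proton myo-inositol transporter (0.981), and Cadm2, a neural cell adhesion molecule (0.979). Without the 3 AgRP libraries that stood apart the same correlations were 0.975, 0.939 and 0.93 over 8 libraries. AgRP libraries with the same number deviate together across states and are not independent, so the values are given as a description.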

How the data were processed

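TRAP RNA and ATAC-seq were analysed as gene and peak counts, and CUT&RUN as peak lists. Per the labels and the study's methods, reads were aligned to mm10 with HISAT2 (RNA) or Bowtie2 (ATAC-seq and CUT&RUN). The authors counted RNA reads with featureCounts over an annotation changed to limit overlapping transcripts, and deposited raw counts per gene and per merged peak. The deposited CTCF list gives MACS2 fold enrichment, a ratio, and the deposited IRF3 list gives SEACR total signal. The IRF3 list was taken to be SEACR output from its columns. Tool versions are not given in the sources used here. Every per-sample column was mapped to a sample (0 left over). Whole arcuate RNA was not analysed here, and log2 CPM tables, IgG and cerebellum lists were not used.

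Counts were scaled by TMM and tested with edgeR 4.0.16 (quasi-likelihood, R 4.3.3) on genes or peaks with a mean over 1 CPM, 1 fit per line or set, with Benjamini-Hochberg adjustment over all features tested. Called means FDR below 0.05 and an absolute log2 fold change above 0.5. The model without a block was primary. Numbers pair AgRP libraries (same-number residual correlations 0.536 to 0.814) and POMC libraries (0.733 to 0.77) but not ATAC-seq states (-0.00228 to 0.165). Whether same-numbered samples of different states were processed on the same day is not stated. DESeq2 1.42.0, other scalings, no low-count filter, leave-one-out, the block, counts summed per numbered set between lines, a term for libraries with Slc1a2 over 10000 CPM, a 25 kb window and any coding transcript start were the alternatives. Isoform shares used exact permutation tests. Depth was 8263234 to 17190963 counts in the ATAC-seq of the 3 states, 8685497 to 8847661 in AgRP-negative and 10802847 to 11177208 in AgRP-positive nuclei. The RNA samples and the ATAC-seq samples of the 3 states are separate pools of 4 mice, and p-values measure the spread between pools. AgRP-positive and AgRP-negative nuclei came from the same pooled samples, a pairing that the primary fit did not use.

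All 8 genes are named. Named peaks are those at the starts and the called peak with the largest change in each comparison. Of the pathway list the called genes are named, and the 3 genes most like each called member. Members and lists were chosen with earlier results of these data known. Gene positions are from GENCODE vM21 and sequences from RefSeq GRCm38.p6. The scripts were tested on simulated data.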

Additional observations from a re-analysis of the deposited data

Results flagged for a closer look

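Within groups of 4 libraries, 22 sets of values were examined for a library far from the rest, of which chance marks about 1 in 20, and 2 had one. Camkk2 in AgRP fasted library 2 was at 40.98 CPM, where the other 3 fasted libraries lay between 31.84 and 33.09, and this value lies in the range of the fed libraries. The γ2 share in AgRP fasted library 4 was 47.12%, where the others lay between 40.55 and 41.65%. This is 1 of the libraries with high Slc1a2, whose part in the value was not tested.

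The fasting effect differed between AgRP and POMC neurons for 2 members by the interaction term of the fit with the replicate block. For Prkag1 the difference was 0.3401 on the log2 scale (edgeR FDR 0.0402), and 0.3412 without the block (FDR 0.755). For Stk11 it was 0.4615 (edgeR FDR 0.00568), and 0.4914 without the block (FDR 0.719). The size of both differences was thus nearly equal in both fits, and the FDR passed the threshold with the block alone.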

How the results depend on the processing

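The RNA comparisons between states called 0 members in each alternative, leaving out 1 library included, and 0 with the replicate block. Over the 8 members and all RNA comparisons, 1128 of 1136 alternative values stayed on the same side of the threshold, 5 lost and 3 gained a call. Between AgRP and POMC RNA over all states, the 1 call became 0 with a term for the libraries that stood apart and ranged from 0 to 2 on leaving out 1 library (0 without POMC number 2 of any state, 2 without AgRP fasted 4, AgRP leptin 4 or POMC leptin 1). The replicate number cannot be a block there because each number belongs to 1 line; with counts summed per numbered set the call became 0. Of the 9 share comparisons 3 passed, 2 to 3 on leaving out 1 library and 0 without the libraries that stood apart or with numbered sets as units, where 4 against 2 sets cannot pass.

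The ATAC-seq counts moved more. Peaks called for fasted against fed went from 10 to 4 with a 25 kb window, 17 with any coding transcript start, 11 with the replicate block and 5 to 8 on leaving out 1 library (6 without fasted 1, 5 without fed 2). For leptin against fasted the 3 calls became 1 with DESeq2, 3 with the block and 0 to 2 on leaving out 1 library (0 without fasted 1 or leptin 1, 1 without fasted 2). For leptin against fed 21 became 7 with a 25 kb window, 32 with any start, 24 with the block and 13 to 22 on leaving out 1 library (13 without either leptin library). For AgRP-positive against AgRP-negative nuclei 14 became 8 with DESeq2, 8 with a 25 kb window, 14 with the block and 7 to 11 on leaving out 1 library (7 without AgRP-negative 2, 9 without AgRP-positive 2). Fewer or more peaks fall in the narrower window or around further starts, and the cause of the other shifts was not tested. Scaling by library size alone moved the median of all peaks by 0.163 in sorted nuclei. The term for the libraries that stood apart, their omission, the numbered sets and GENCODE lengths for the shares were chosen after seeing the data. With 2 libraries per state, ATAC-seq and POMC differences rest on few degrees of freedom.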
